A study of Mus musculus with 5 samples.

Results

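Mural cells, the pericytes and smooth muscle cells that wrap blood vessels, share a small set of contractile, channel and surface genes with marrow stromal cells. Here 10 of these genes, *Acta2*, *Myh11*, *Rgs5*, *Cspg4*, *Mcam*, *Tagln*, *Cnn1*, *Des*, *Abcc9* and *Kcnj8*, were examined by name among the 30046 features of a bulk RNA-seq count table, and all 10 had a row in it. The cells were Cxcl12-GFP(high) tdTomato+ cells sorted from the femurs of mice at P21 after a single dose of tamoxifen at E12.5. The genotype was Cxcl12(GFP/+); Dlx5(CreER/+); R26R(tdTomato/+) for 3 libraries (Dlx5CE-E12.5, the descendants of fetal perichondrial cells) and Cxcl12(GFP/+); Fgfr3-iCreER; R26R(tdTomato/+) for 2 libraries (Fgfr3CE-E12.5, the descendants of fetal chondrocytes), numbered 2 and 3 as in the labels. Every library therefore carried 1 GFP-replaced copy of *Cxcl12*, the tdTomato reporter and a tamoxifen-inducible Cre, and no library without Cre or tamoxifen was analysed here. The tdTomato label marks descendants of whichever cells had driver activity at the pulse, cells of littermates with one genotype were pooled before the sort, and the purity of the sorted cells was not determined according to the study.

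Smooth muscle cells contract through actin and myosin filaments. *Acta2* encodes smooth muscle alpha actin, *Myh11* the smooth muscle myosin heavy chain, and *Tagln* (SM22 alpha) and *Cnn1* (calponin) are proteins bound to actin. *Des* encodes desmin, an intermediate filament protein. Pericytes are commonly identified by *Rgs5*, a GTPase-activating protein that shortens G protein signalling, by *Kcnj8* and *Abcc9*, which encode the pore and the sulfonylurea receptor of one potassium channel that opens when ATP is low, and by the surface proteins *Cspg4* (NG2) and *Mcam* (CD146). In bone marrow several of these genes are also transcribed outside mural cells: CXCL12-abundant reticular (CAR) cells sit around sinusoids, and MCAM is a familiar surface marker of stromal progenitors. Contractile genes are switched on by serum response factor (SRF) together with the cofactors myocardin (*Myocd*) or MRTF (*Mrtfa*, *Mrtfb*), through a DNA element called the CArG box.

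Total counts were 22035650 to 32563758 in the Dlx5CE-E12.5 libraries and 56355203 to 58166285 in the Fgfr3CE-E12.5 libraries, so that 3 counts, taken as the smallest detectable amount, corresponded to 0.0473 to 0.141 CPM. CPM is the count scaled by the library total after TMM correction. The filters described below used the library total without that correction, so a gene near a minimum can pass with a printed CPM just under it. All 8 CAR markers examined were present in every library, with *Cxcl12* at 21300 to 22400 CPM in Dlx5CE-E12.5 cells and 5800 to 8070 CPM in Fgfr3CE-E12.5 cells. The study's methods give a different sequencer and read length for each lineage (paired 150-base reads and single 50-base reads), whereas the labels name one sequencer, so the lineage and the sequencing cannot be told apart. Differences are log2 fold changes of Fgfr3CE-E12.5 over Dlx5CE-E12.5 cells, and a gene was called when edgeR's adjusted p was under 0.05 and the log2 fold change was beyond 1 in either direction.

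Contractile, filament and surface genes of the set went in opposite directions between the lineages. *Acta2*, *Tagln*, *Mcam* and *Cspg4* were higher in Fgfr3CE-E12.5 cells by 3.25-fold to 11.2-fold, whereas *Des* was 5.45-fold and *Myh11* 8.23-fold higher in Dlx5CE-E12.5 cells. *Rgs5*, *Kcnj8* and *Abcc9* were not called, and *Cnn1* was close to absent. The filter named in the study's methods keeps genes that reach a CPM of 10 in 2 or more libraries, and 8 of the 10 genes passed it. Of these, 4 were called higher in Fgfr3CE-E12.5 cells, where 16.4% of the 10088 genes tested were, and 1 was called higher in Dlx5CE-E12.5 cells, where 13.1% were. The libraries of the 2 lineages did not overlap for 5 of the 8, against 68.9% of all genes. With the minimum lowered to a CPM of 1, which admitted *Myh11*, 4 of 9 genes were called higher in Fgfr3CE-E12.5 cells (16.6% of all 13225 genes) and 2 in Dlx5CE-E12.5 cells (12.9%), and the libraries did not overlap for 6 of the 9 (66.6%). *Cspg4*, *Mcam* and *Tagln* passed the CPM of 10 through the Fgfr3CE-E12.5 libraries alone and *Des* through the Dlx5CE-E12.5 libraries alone. *Myh11* passed the CPM of 1 through the Dlx5CE-E12.5 libraries alone. The counts at both filters therefore describe the genes that passed and not the whole set. The median log2 fold change was 1.07 over the 8 genes and 0.41 over the 9 genes of the lower filter, against 0.01 over all genes tested in either case.

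**Figure D1:**
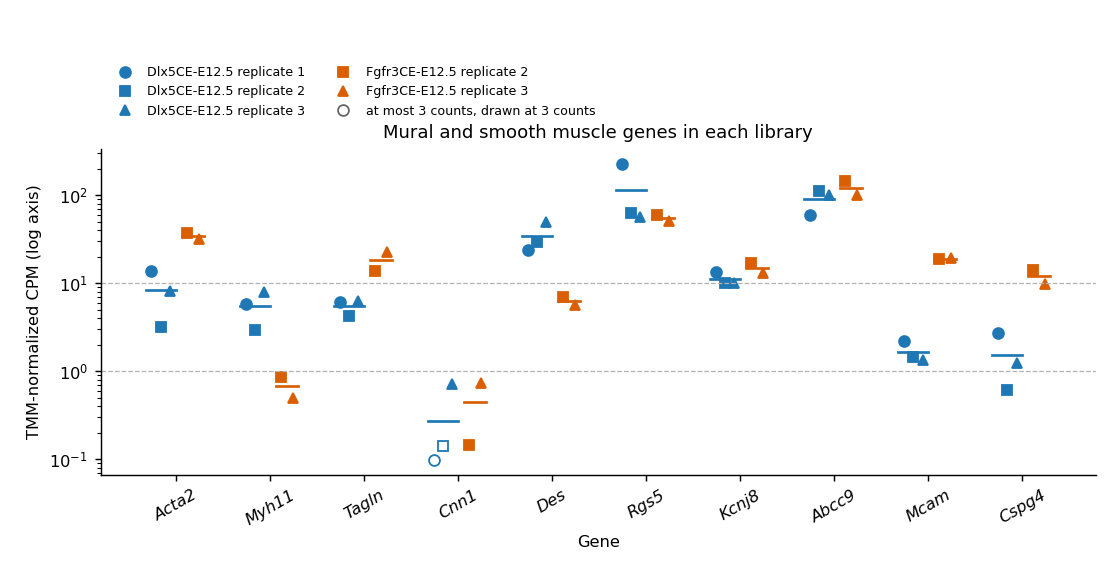
CPM of each of the 10 genes in each library on a log axis, with Dlx5CE-E12.5 libraries in blue, Fgfr3CE-E12.5 libraries in orange, horizontal bars for group means and dashed lines at a CPM of 1 and 10. The filters were applied before TMM correction, so these lines do not mark them exactly. Open symbols are libraries with at most 3 counts, drawn at 3 counts; the orange symbols lie above all blue ones for Acta2, Tagln, Mcam and Cspg4 and below them for Myh11 and Des.

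*Acta2* (ENSMUSG00000035783; GRCm38 chromosome 19, 34241090 to 34255590, minus strand, 10 merged exons) had a CPM of 13.6, 3.16 and 8.11 in Dlx5CE-E12.5 replicates 1 to 3 and of 36.8 and 31.3 in Fgfr3CE-E12.5 replicates 2 and 3. Both Fgfr3CE-E12.5 libraries were above every Dlx5CE-E12.5 library, and replicate 2 was the lowest of the latter. The log2 fold change was 2.03 (standard error 0.5, adjusted p = 0.0145, edgeR). Without Fgfr3CE-E12.5 replicate 2 the call was lost (adjusted p = 0.0514, edgeR), and without replicate 3 it was kept (adjusted p = 0.0428, edgeR). Only 0.326% of the 50-base windows of the *Acta2* transcripts also occur in another gene.

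The 250 bases before the start of *Acta2* are shown because smooth muscle alpha actin is a textbook target of SRF, and *Srf* itself and the cytoplasmic actin gene *Actg1* were also called higher in Fgfr3CE-E12.5 cells, whereas *Synm*, a desmin-binding filament protein, was called higher in Dlx5CE-E12.5 cells. A CArG box is CC, then 6 bases that are each A or T, then GG, a form that reads the same on both strands. Capitals mark these boxes, with at most 1 other letter allowed among the 6. The sequences are from RefSeq on GRCm38.p6, written along the gene's own strand from chr19:34255374-34255623, chr17:46556163-46556412, chr11:120348496-120348745 and chr7:67759743-67759992, all on the minus strand.
Acta2: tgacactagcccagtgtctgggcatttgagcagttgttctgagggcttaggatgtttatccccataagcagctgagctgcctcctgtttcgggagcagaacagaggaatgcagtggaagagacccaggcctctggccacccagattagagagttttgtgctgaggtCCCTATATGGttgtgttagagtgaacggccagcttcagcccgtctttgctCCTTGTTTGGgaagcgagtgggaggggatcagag
Srf: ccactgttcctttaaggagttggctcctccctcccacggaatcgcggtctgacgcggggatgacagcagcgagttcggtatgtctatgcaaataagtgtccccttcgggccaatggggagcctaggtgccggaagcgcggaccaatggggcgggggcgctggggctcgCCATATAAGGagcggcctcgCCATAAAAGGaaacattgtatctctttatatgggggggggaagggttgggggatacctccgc
Actg1: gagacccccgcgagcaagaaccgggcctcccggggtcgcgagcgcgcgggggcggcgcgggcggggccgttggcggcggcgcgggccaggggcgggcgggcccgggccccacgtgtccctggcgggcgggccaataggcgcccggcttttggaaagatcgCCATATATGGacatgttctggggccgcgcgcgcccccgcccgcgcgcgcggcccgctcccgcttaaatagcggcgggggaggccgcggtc
Synm: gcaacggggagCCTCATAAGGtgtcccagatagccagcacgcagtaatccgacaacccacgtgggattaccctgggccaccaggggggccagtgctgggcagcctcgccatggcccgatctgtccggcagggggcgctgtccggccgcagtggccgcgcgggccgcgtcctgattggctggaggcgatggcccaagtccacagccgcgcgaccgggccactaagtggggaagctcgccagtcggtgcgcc
The *Acta2* window held CCCTATATGG and CCTTGTTTGG, each with 1 other letter, starting 84 and 34 bases before the start. The *Srf* window held the exact boxes CCATATAAGG and CCATAAAAGG, and the *Actg1* window the exact box CCATATATGG. The *Synm* window held CCTCATAAGG, with 1 other letter, so such a box was present in genes of either direction. Of 6 genes looked up besides the 10, 4 had a promoter entry: *Srf*, *Actg1*, *Synm* and *Csrp1*. *Csrp1* was also called higher in Fgfr3CE-E12.5 cells, but none of its windows held a box, also with 1 other letter allowed. Its sequence is therefore not shown. Among all 32851 promoters of the table, 1.47% held an exact box and 8.59% one with at most 1 other letter in these 250 bases. The table had an entry for 8 of the 10 genes (not *Myh11* or *Tagln*), and *Acta2* was the only one of the 8 with a match, also for boxes with 1 other letter. The motif CATTCC, the letters bound by TEAD factors, was present on either strand in the windows of *Acta2* and *Abcc9*, against 12.6% of all promoters, and TATAAA was in none of the 8, against 12.4%. A match is a description of letters and not of binding.

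*Tagln* (ENSMUSG00000032085; chromosome 9, 45929619 to 45936058, minus strand) followed the direction of *Acta2*. Its CPM was 6.1, 4.19 and 6.32 in the Dlx5CE-E12.5 libraries and 13.7 and 22.4 in the Fgfr3CE-E12.5 libraries. The groups did not overlap, and the log2 fold change was 1.70 (standard error 0.31, adjusted p = 0.00409, edgeR). The antisense gene *Gm48529* covers 62.4% of the *Tagln* exon bases and *Pcsk7* a further 5.43%, and the strand setting of the counting is not given in the sources used here. *Gm48529* had 27, 48 and 48 counts in the Dlx5CE-E12.5 libraries and 248 and 330 in the Fgfr3CE-E12.5 libraries, against 89 to 187 and 845 to 1417 counts for *Tagln*. Reads of the pair cannot be told apart without strand, and both were higher in number in the Fgfr3CE-E12.5 libraries.

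*Myh11* (ENSMUSG00000018830; chromosome 16, 14194535 to 14291372, minus strand) went the other way. It had a CPM of 5.71, 2.92 and 7.83 in the Dlx5CE-E12.5 libraries, from 175, 62 and 197 counts. In the deeper Fgfr3CE-E12.5 libraries it had 53 and 31 counts, a CPM of 0.861 and 0.489. Every Dlx5CE-E12.5 library was above both Fgfr3CE-E12.5 libraries. In the fit with the lower filter the log2 fold change was -3.04 (standard error 0.6, adjusted p = 0.00637, edgeR), and it lay between -3.48 and -2.67 with each library left out in turn. *Myh11* shares 0.34% of its windows with *Myh9*, a nonmuscle myosin. Per kilobase of exon, the *Acta2* level was 8.23, 3.74 and 3.58 times that of *Myh11* in the Dlx5CE-E12.5 libraries and 148 and 221 times in the Fgfr3CE-E12.5 libraries.

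*Cnn1* (ENSMUSG00000001349; chromosome 9, 22099216 to 22109630, plus strand) had 0, 2 and 18 counts in the Dlx5CE-E12.5 libraries and 9 and 47 in the Fgfr3CE-E12.5 libraries. These are CPM values of at most 0.742, below both filters, and the lineages overlapped. Its relatives *Cnn2* and *Cnn3*, which are calponins of nonmuscle cells, were at 459 to 543 and 518 to 562 CPM in Dlx5CE-E12.5 cells and at 588 to 846 and 433 to 519 CPM in Fgfr3CE-E12.5 cells. A difference in *Cnn1* was not detectable at this depth.

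*Des* (ENSMUSG00000026208; chromosome 1, 75360329 to 75368579, plus strand) had a CPM of 23.6, 29.2 and 50 in the Dlx5CE-E12.5 libraries and of 6.99 and 5.59 in the Fgfr3CE-E12.5 libraries. The lowest Dlx5CE-E12.5 library was above both Fgfr3CE-E12.5 libraries. The log2 fold change was -2.45 (standard error 0.36, adjusted p = 0.00179, edgeR), and it was between -2.66 and -2.08 with any one library left out. *Vim*, which encodes vimentin, the general intermediate filament protein of mesenchymal cells, had a CPM of 562, 564 and 575 in Dlx5CE-E12.5 cells and 617 and 531 in Fgfr3CE-E12.5 cells, with overlap. The *Des* level per kilobase was 5.31%, 6.55% and 11.0% of the *Vim* level in the Dlx5CE-E12.5 libraries and 1.43% and 1.33% in the Fgfr3CE-E12.5 libraries. Desmin is also a skeletal muscle protein. Of 15 skeletal muscle markers listed, 9 had a row, 5 reached a CPM of 1 in any library, their summed CPM was 6.88 to 8.02 in Dlx5CE-E12.5 cells and 4.26 to 7.01 in Fgfr3CE-E12.5 cells, and *Myh8* never exceeded 3 counts. Within the list, *Acta1* (skeletal alpha actin) was called higher in Dlx5CE-E12.5 cells, *Neb* (nebulin) had 32, 8 and 22 counts in the Dlx5CE-E12.5 libraries and 2 and 1 in the Fgfr3CE-E12.5 libraries, and *Ttn* (titin) had a log2 fold change of -1.32 that was not called (adjusted p = 0.106, edgeR with the lower filter). Other genes of the list went toward Fgfr3CE-E12.5 cells. *Mylpf*, its most abundant gene, was at 0.98 and not called (adjusted p = 0.166, edgeR with the lower filter). *Tnni2* had 10, 4 and 11 counts in the Dlx5CE-E12.5 libraries and 49 and 65 in the Fgfr3CE-E12.5 libraries. The part of muscle cells in the *Des* level was not tested.

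*Rgs5* (ENSMUSG00000026678; chromosome 1, 169655501 to 169695813, plus strand) had 1 library that stood apart. Its CPM was 228, 63.0 and 55.8 in the Dlx5CE-E12.5 libraries and 58.6 and 50.6 in the Fgfr3CE-E12.5 libraries. Dlx5CE-E12.5 replicate 1 was 3.84 times the mean of replicates 2 and 3, and the latter overlapped with the Fgfr3CE-E12.5 libraries. The log2 fold change was -1.09 (standard error 0.61, 95% interval -2.53 to 0.35, adjusted p = 0.182, edgeR). Without Dlx5CE-E12.5 replicate 1 it was -0.12 (standard error 0.16, adjusted p = 0.568, edgeR). The same library was also the highest of the Dlx5CE-E12.5 libraries for *Acta2*, at 2.41 times the mean of replicates 2 and 3, and for *Cspg4*, at 2.98 times. It was the highest too for *Mcam*, at 1.56 times, and for *Kcnj8*, at 1.33 times. It was the lowest of them for *Des* and *Abcc9*, at 0.596 and 0.562 times. *Pdgfrb*, the PDGF receptor of mural and stromal cells, had a CPM of 669 in replicate 1 against 1020 and 952 in replicates 2 and 3, and *Notch3*, a mural Notch receptor, 120 against 129 and 107. The summed CPM of 12 endothelial markers in replicate 1 was 54.6, between the 62.8 and 36.9 of replicates 2 and 3, and that of 8 erythroid markers was 16400, against 8060 and 10700. Their part in the *Rgs5* level was not tested.

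The channel subunits did not separate the lineages. *Kcnj8* (ENSMUSG00000030247; chromosome 6, 142564837 to 142571614, minus strand) had a CPM of 13.4, 10.1 and 10 in the Dlx5CE-E12.5 libraries and 16.9 and 13.1 in the Fgfr3CE-E12.5 libraries, and its log2 fold change was 0.43 (95% interval -0.15 to 1.00, adjusted p = 0.191, edgeR). *Abcc9* (ENSMUSG00000030249; chromosome 6, 142587862 to 142702315, minus strand), which lies 16247 bases from it, had a CPM of 59.2, 111 and 99.6 in the Dlx5CE-E12.5 libraries and 144 and 99.6 in the Fgfr3CE-E12.5 libraries. The log2 fold change of *Abcc9* was also 0.43 (95% interval -0.24 to 1.11, adjusted p = 0.249, edgeR). Both intervals leave room for a difference of up to about 2-fold toward Fgfr3CE-E12.5 cells. Per kilobase, *Kcnj8* was at 74.4%, 29.7% and 33.1% of *Abcc9* in the Dlx5CE-E12.5 libraries and at 38.7% and 43.2% in the Fgfr3CE-E12.5 libraries, so that the pore subunit was the lower of the pair in every library. Of the subunits of the related pancreatic channel, *Abcc8* was at or below 0.119 CPM in every library.

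The surface proteins had the largest differences among the 8 genes. *Mcam* (ENSMUSG00000032135; chromosome 9, 44134469 to 44142727, plus strand) had a CPM of 2.19, 1.46 and 1.35 in the Dlx5CE-E12.5 libraries and 18.7 and 19.1 in the Fgfr3CE-E12.5 libraries. The Fgfr3CE-E12.5 libraries were nearly equal and far above the others, and the log2 fold change was 3.49 (standard error 0.29, adjusted p = 0.000174, edgeR), 11.2-fold. *Cspg4* (ENSMUSG00000032911; chromosome 9, 56865033 to 56899870, plus strand) had a CPM of 2.74, 0.612 and 1.23 in the Dlx5CE-E12.5 libraries and 14.2 and 9.77 in the Fgfr3CE-E12.5 libraries. The groups did not overlap, and the log2 fold change was 2.93 (standard error 0.54, adjusted p = 0.00453, edgeR), 7.64-fold. Without Dlx5CE-E12.5 replicate 1, the highest of its group, it was 3.67. *Mcam* is also an endothelial gene and *Cspg4* a gene of immature cartilage. The summed CPM of 12 endothelial markers was 36.9 to 62.8 in Dlx5CE-E12.5 cells and 46.9 to 63.9 in Fgfr3CE-E12.5 cells, and none of the 12 was called higher in Fgfr3CE-E12.5 cells. *Pecam1*, the most abundant, was just short of a call at 0.94 (adjusted p = 0.0504, edgeR). *Cdh5* was called higher in Dlx5CE-E12.5 cells with the lower filter, at -2.01 (adjusted p = 0.0485, edgeR), and the median of the 12 was 0.12. The 8 chondrocyte markers summed to 127 to 137 CPM in Dlx5CE-E12.5 cells and to 3210 and 462 CPM in Fgfr3CE-E12.5 replicates 2 and 3. With the lower filter 7 of the 8 were called higher in Fgfr3CE-E12.5 cells, and several of the 7 passed it through the Fgfr3CE-E12.5 libraries alone. *Sox9*, which was not called, held most of the sum in Dlx5CE-E12.5 cells at 117 to 124 CPM. Between the Fgfr3CE-E12.5 libraries, *Cspg4* was 1.45 times and *Mcam* 1.03 times apart. The part of these markers in the surface protein genes was not tested.

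**Figure D2:**
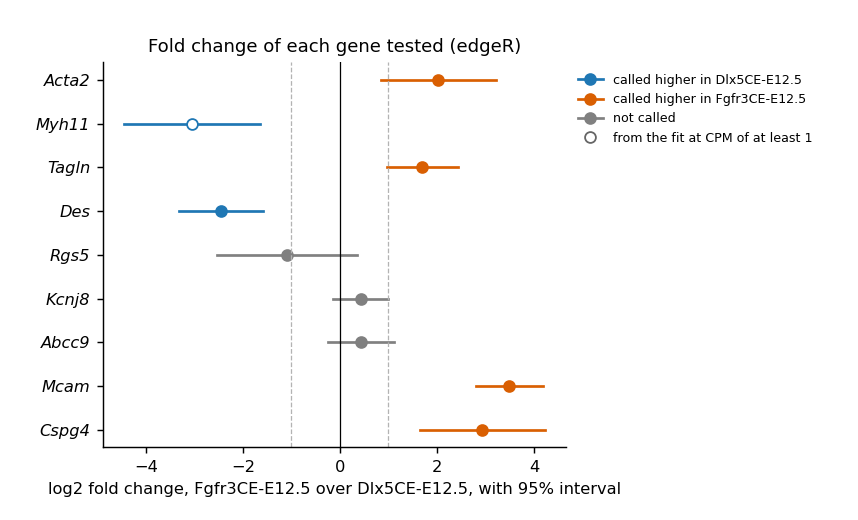
Log2 fold change of each of the 9 genes that could be tested, Fgfr3CE-E12.5 over Dlx5CE-E12.5, with its 95% interval from edgeR, and dashed lines at 1 and -1. Orange marks genes called higher in Fgfr3CE-E12.5 cells, blue those called higher in Dlx5CE-E12.5 cells and grey those not called; the intervals of Rgs5, Kcnj8 and Abcc9 include 0, and the open symbol (Myh11) is from the fit with the lower filter.

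The order of the 10 genes differed between the lineages when levels were set per kilobase of exon. In Dlx5CE-E12.5 cells the highest were *Rgs5* at 25.4 ± 21.5 CPM per kb (SD, n = 3), *Abcc9* at 10.8 ± 3.27 and *Des* at 9.13 ± 3.69, which lie within each other's spread. *Kcnj8* (4.38 ± 0.761), *Acta2* (3.77 ± 2.37) and *Tagln* (2.79 ± 0.59) came next, also within the spread of their neighbours. *Myh11* was at 0.722 ± 0.324, *Mcam* at 0.497 ± 0.135, *Cspg4* at 0.128 ± 0.0917 and *Cnn1* at 0.0987 ± 0.142. In Fgfr3CE-E12.5 cells *Acta2* came first at 15.5 ± 1.77 CPM per kb (SD, n = 2), then *Abcc9* at 14.5 ± 3.74, *Rgs5* at 12.0 ± 1.25 and *Tagln* at 9.08 ± 3.07, again within the spread of their neighbours. *Kcnj8* (5.89 ± 1.07) and *Mcam* (5.64 ± 0.101) were alike in level, and *Des* (1.67 ± 0.264), *Cspg4* (1.00 ± 0.261), *Cnn1* (0.162 ± 0.154) and *Myh11* (0.0889 ± 0.0346) were lowest. The summed CPM of the 10 genes was 226 to 355 in Dlx5CE-E12.5 cells and 253 to 311 in Fgfr3CE-E12.5 cells, which overlap. In bulk samples, fewer cells that express a gene and less RNA of it per cell cannot be told apart.

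Elsewhere in the contractile apparatus, called genes lay in both directions. Of 16 further genes, 11 were tested with the CPM of 10, with a median log2 fold change of -0.01 against 0.01 over all genes. Of these, 4 were called higher in Dlx5CE-E12.5 cells (13.1% of all genes) and 1 in Fgfr3CE-E12.5 cells (16.4%). With the lower filter, 14 were tested, 5 and 1 were called (12.9% and 16.6% of all genes), and the median was -0.50. *Synm*, which encodes synemin, a filament protein that binds desmin, had a CPM of 43.4, 42.5 and 40.7 in the Dlx5CE-E12.5 libraries and 8.76 and 5.46 in the Fgfr3CE-E12.5 libraries (log2 fold change -2.57, standard error 0.25, adjusted p = 0.000307, edgeR). *Synm* thus changed in the direction of *Des*, and it too passed the CPM of 10 through the Dlx5CE-E12.5 libraries alone. *Itga8*, an integrin subunit, changed by -1.58, *Cald1* (caldesmon) by -1.21 and *Mylk* (myosin light chain kinase) by -1.15 (adjusted p = 0.000805, 0.00271 and 0.00714, edgeR). Without Fgfr3CE-E12.5 replicate 3, *Cald1* was at -0.90 and *Mylk* at -0.79 and neither was called. *Synpo2*, an actin-bundling protein, was called at -1.87 with the lower filter (adjusted p = 0.0227, edgeR), and its adjusted p was 0.0501 and 0.0542 without Dlx5CE-E12.5 replicates 1 and 2. The log2 fold change of *Synpo2* was -2.87 and -1.26 without Fgfr3CE-E12.5 replicates 2 and 3. In the other direction, *Csrp1*, a LIM protein of smooth muscle, had a CPM of 10.1, 19.7 and 33.4 against 79.8 and 89.3 (log2 fold change 2.01, standard error 0.43, adjusted p = 0.00786, edgeR).

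Among 14 regulators of mural and smooth muscle genes, 10 were tested and 2 were called, 1 in each direction, with a median of -0.22. The shares of all genes called were 13.1% higher in Dlx5CE-E12.5 cells and 16.4% in Fgfr3CE-E12.5 cells. *Srf* passed the CPM of 10 through the Fgfr3CE-E12.5 libraries alone. *Srf* had a CPM of 3.65, 7.25 and 5.69 in the Dlx5CE-E12.5 libraries and 16.5 and 34.2 in the Fgfr3CE-E12.5 libraries (log2 fold change 2.2, standard error 0.4, adjusted p = 0.00398, edgeR). All Dlx5CE-E12.5 libraries were below both Fgfr3CE-E12.5 libraries, which differed from each other about as much as the Dlx5CE-E12.5 libraries did. Its cofactor *Mrtfb* went the other way, with a log2 fold change of -1.10 (adjusted p = 0.00818, edgeR). The call of *Mrtfb* was lost without Fgfr3CE-E12.5 replicate 3, at -0.78. *Myocd*, the cofactor restricted to smooth and cardiac muscle, had 9, 14 and 27 counts in the Dlx5CE-E12.5 libraries and none in either Fgfr3CE-E12.5 library. It was at least 14-fold lower in Fgfr3CE-E12.5 cells when these were set at 3 counts per library. *Myocd* did not pass either filter, and the unfiltered edgeR fit gave it an adjusted p of 0.0173. *Foxf2*, a forkhead factor of pericytes, was called at 3.02 with the lower filter (adjusted p = 0.0041, edgeR). It had 6 to 9 counts in the Dlx5CE-E12.5 libraries and 170 and 142 in the Fgfr3CE-E12.5 libraries, and passed that filter through the latter alone.

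Of 19 further pericyte genes listed, 14 were tested, of which 3 were called higher in each lineage, with a median of -0.29. Of all genes tested, 13.1% were called higher in Dlx5CE-E12.5 cells and 16.4% in Fgfr3CE-E12.5 cells. *Trpc6* and *Ano1* passed the CPM of 10 through the Fgfr3CE-E12.5 libraries alone, and *Cox4i2* through the Dlx5CE-E12.5 libraries alone. *Trpc6*, a calcium-permeable channel, had a CPM of 6.46, 9.98 and 7.48 in the Dlx5CE-E12.5 libraries and 56.3 and 63.7 in the Fgfr3CE-E12.5 libraries (log2 fold change 2.92, standard error 0.22, adjusted p = 0.000119, edgeR). *Ano1*, a calcium-activated chloride channel, changed by 2.50 and *Gucy1a1*, a subunit of the nitric oxide receptor, by 1.11 (adjusted p = 0.00079 and 0.00459, edgeR). Without Fgfr3CE-E12.5 replicate 2, *Gucy1a1* was at 0.85 and no longer called. *Art3* was called at 2.55 with the lower filter (adjusted p = 0.00144, edgeR). Higher in Dlx5CE-E12.5 cells were *P2ry14*, a receptor for UDP-sugars, at -1.78, *Steap4*, a metalloreductase, at -1.07, and *Cox4i2*, a subunit of cytochrome oxidase, at -1.01 (adjusted p = 0.000555, 0.0117 and 0.0154, edgeR). The last 2 stood near the threshold of the log2 fold change, and without Fgfr3CE-E12.5 replicate 3 they were at -0.77 and -0.72 and not called. *Steap4* was also at -0.94 without Dlx5CE-E12.5 replicate 3, and *Cox4i2* at -0.96 without Dlx5CE-E12.5 replicate 1. *Vtn*, which encodes vitronectin, had 183, 83 and 127 counts in the Dlx5CE-E12.5 libraries and 37 and 11 in the Fgfr3CE-E12.5 libraries (log2 fold change -3.70 with the lower filter, adjusted p = 0.0042, edgeR). It was at -4.81 and -3.04 without Fgfr3CE-E12.5 replicates 2 and 3.

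**Figure D3:**
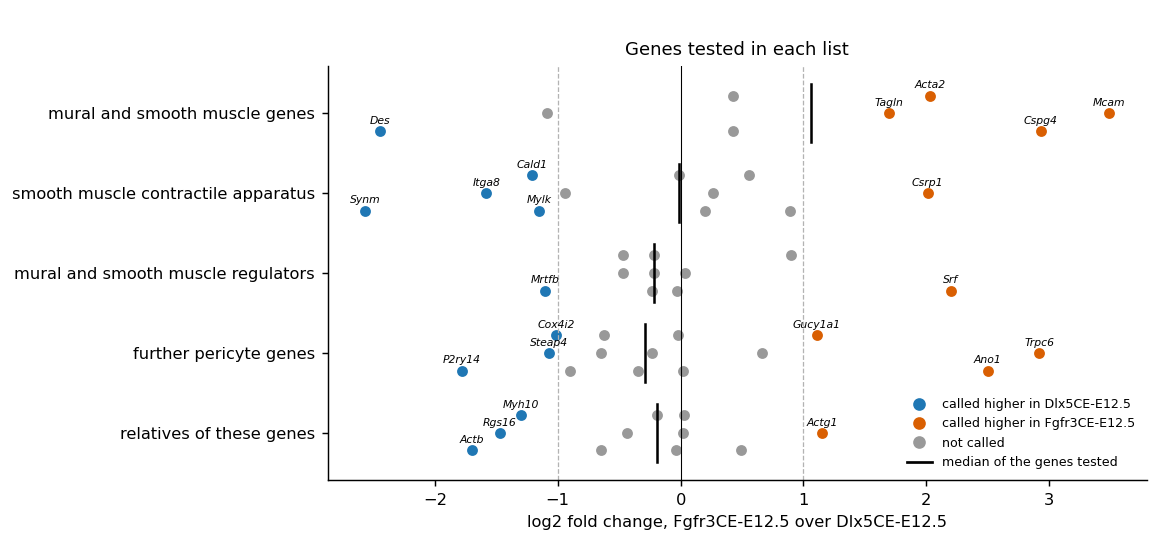
Log2 fold change, Fgfr3CE-E12.5 over Dlx5CE-E12.5, of the genes that reached a CPM of 10 in 2 or more libraries, in rows for the mural and smooth muscle genes and 4 lists around them, with called genes named and coloured by direction. Black bars are medians and dashed lines mark 1 and -1; each row has called genes on both sides of 0.

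Several relatives of these genes in the same protein families, the forms of nonmuscle cells, were far more abundant. Of 22 listed, 11 were tested, with a median of -0.19. Of these, 3 were called higher in Dlx5CE-E12.5 cells, against 13.1% of all genes, and 1 in Fgfr3CE-E12.5 cells, against 16.4%. *Actb*, cytoplasmic beta actin, had a CPM of 2840, 2840 and 3050 in the Dlx5CE-E12.5 libraries and 995 and 794 in the Fgfr3CE-E12.5 libraries (log2 fold change -1.70, adjusted p = 0.000502, edgeR). *Actg1*, cytoplasmic gamma actin, had 1010, 872 and 997 CPM against 2020 and 2250 CPM (log2 fold change 1.15, adjusted p = 0.00133, edgeR), opposite to *Actb*. Their counts are uncertain, since 9.12% of the windows of *Actb* and 37.4% of those of *Actg1* occur in other genes. The *Acta2* level per kilobase was 0.136% to 0.582% of that of *Actb* in the Dlx5CE-E12.5 libraries and 4.51% and 4.8% in the Fgfr3CE-E12.5 libraries. Against *Actg1* it was 0.438% to 1.62%, and 2.2% and 1.68%, a narrower gap. *Acta1*, the skeletal alpha actin, had 67, 47 and 51 counts in the Dlx5CE-E12.5 libraries and 2 in each Fgfr3CE-E12.5 library, a ratio of 66.8 (95% counting interval 25.6 to 248, counting error only; adjusted p = 0.000765 in the edgeR fit with the lower filter). *Tagln2*, the transgelin of nonmuscle cells, was at 285 to 306 CPM in Dlx5CE-E12.5 cells and 279 to 332 CPM in Fgfr3CE-E12.5 cells, and *Tagln* per kilobase was 1.54% to 2.17% and 5.15% to 7.06% of it. *Myh9* was at 66.4 to 94.1 CPM and 77 to 78 CPM, and *Myh11* per kilobase was 5.28% to 17.0% and 1.07% to 1.9% of it. *Myh9* was not called, whereas *Myh10*, another nonmuscle myosin, was called at -1.30 (adjusted p = 0.000936, edgeR). *Rgs16*, a relative of *Rgs5*, changed by -1.47 (adjusted p = 0.00681, edgeR; 0.0522 without Fgfr3CE-E12.5 replicate 3), and *Rgs4* was not called.

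**Figure D4:**
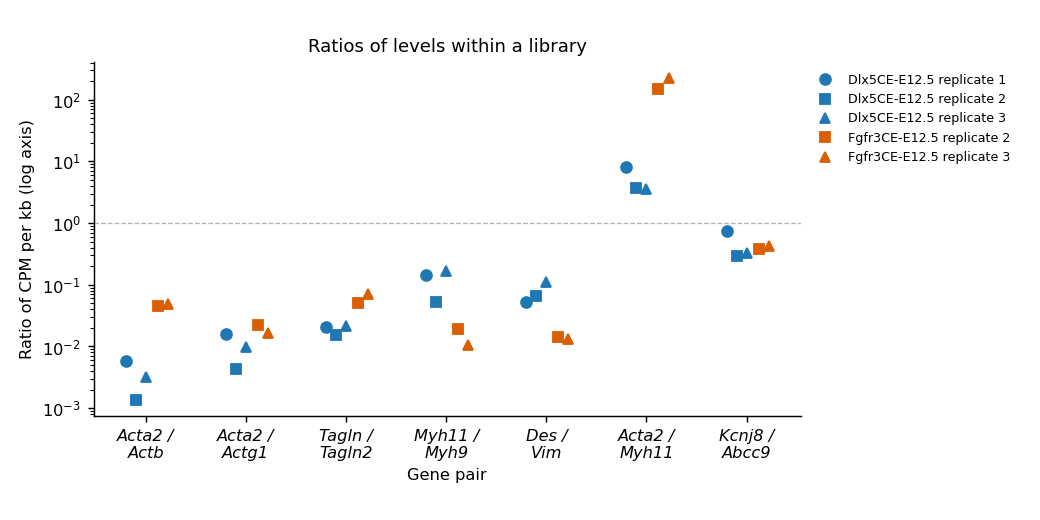
Ratio of the CPM per kilobase of exon of a gene to that of a second gene within each library, on a log axis, for 7 pairs; Dlx5CE-E12.5 libraries are blue, Fgfr3CE-E12.5 libraries orange, and the dashed line is a ratio of 1. Acta2 and Tagln were higher relative to Actb and Tagln2 in both Fgfr3CE-E12.5 libraries, Myh11 and Des lower relative to Myh9 and Vim, and Kcnj8 was below Abcc9 in every library.

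Markers of other cell types differed between the libraries to unequal degrees. Leukocyte markers summed to 382 to 506 CPM in Dlx5CE-E12.5 cells and to 1220 and 2510 CPM in Fgfr3CE-E12.5 replicates 2 and 3, with 12 of 12 above a CPM of 1 in some library and *Lcp1* and *Coro1a* the most abundant, and 11 of the 12 were called higher in Fgfr3CE-E12.5 cells. Megakaryocyte and platelet markers, led by *Itgb3* and *Itga2b*, summed to 14.6 to 22.4 and to 116 and 75.8 CPM, with 8 of 8 above a CPM of 1 in some library. Erythroid markers, led by *Hba-a1* and *Hbb-bt*, summed to 8060 to 16400 and to 4870 and 6840 CPM, and these 2 of the 8 were called higher in Dlx5CE-E12.5 cells. Schwann cell markers, led by *S100b* and *Mbp*, summed to 27.3 to 29.4 and to 46.2 and 41.8 CPM, with 4 of 8 above a CPM of 1. *Acta2* was 36.8 and 31.3 CPM and *Mcam* 18.7 and 19.1 CPM in the Fgfr3CE-E12.5 libraries whose leukocyte sums were 1220 and 2510 CPM. CAR markers, led by *Cxcl12* and *Kitl*, summed to 28100 to 29200 and to 11100 and 7460 CPM, most of it *Cxcl12*. Of these 8 genes, 5 were called higher in Dlx5CE-E12.5 cells, *Lepr* and *Prrx1* were not called, and *Foxc1* was called higher in Fgfr3CE-E12.5 cells, at a mean of 337 against 47.7 CPM. The part of these cells and of the CAR markers in the 6 genes called was not tested.

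**Figure D5:**
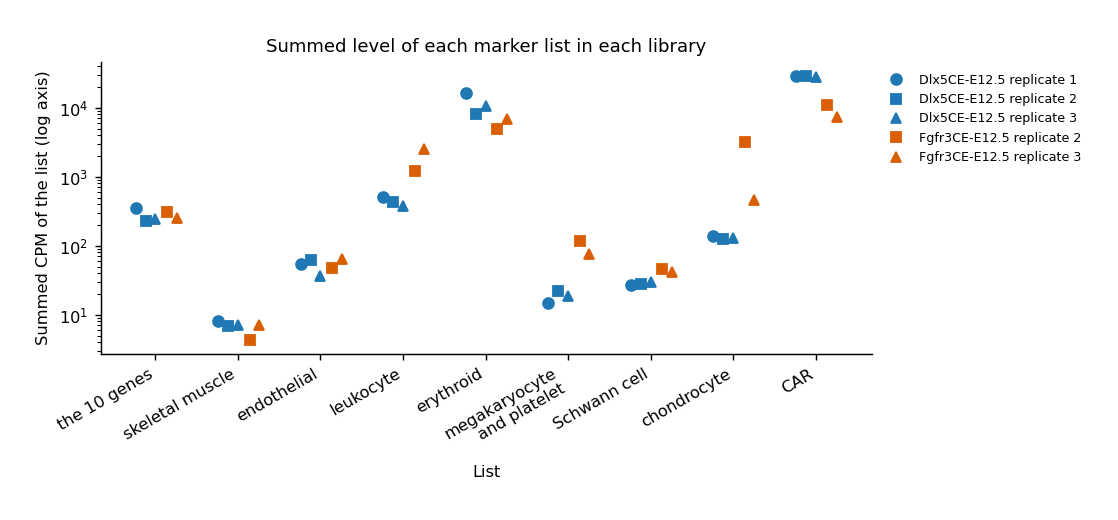
Summed CPM of the 10 genes and of 8 marker lists in each library, on a log axis, with Dlx5CE-E12.5 libraries in blue and Fgfr3CE-E12.5 libraries in orange. The 10 genes and the endothelial list overlap between the lineages, the leukocyte, megakaryocyte, Schwann cell and chondrocyte lists lie higher and the erythroid and CAR lists lower in Fgfr3CE-E12.5 cells.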

How the data were processed

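RNA of sorted cells was amplified with a low-input SMART-Seq kit and made into libraries by Nextera XT. According to the labels and the study's methods, the authors aligned reads to mm10 (GRCm38) with TopHat2 2.0.13 and Bowtie2 2.2.1 and deposited raw read counts per gene; HTSeq is among the tools named, and its strand setting is not given in the sources used here. The deposited depth-normalized and rlog values were not used.

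The counts entered edgeR 4.0.16, run in R 4.3.3 (TMM, quasi-likelihood test, Benjamini-Hochberg adjustment over all genes tested), with the lineage as the only term. Protein-coding genes and reporter sequences were kept when 2 or more libraries reached a CPM of 10, computed before TMM correction. A second fit with a minimum of 1 served genes this left out. The log2 fold change divided by the root of F gave its standard error. Gene positions were from GENCODE M21, in which 29965 identifiers were found and 76 were not. Shared sequence was measured over 50-base windows of each gene, compared in both orientations with the transcripts of all other genes. Promoters were from RefSeq (GRCm38.p6). The fit was tested on simulated counts. Figures were drawn with matplotlib 3.10.9.

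The 10 genes and the lists were chosen with earlier results of these data known. Named were all 10 genes, in order of role, and relatives that bear on counting. So were the genes of each list with the largest called changes in each direction. The remaining called genes of each list, *Myocd*, *Pdgfrb*, *Notch3*, *Neb*, *Ttn*, *Mylpf* and *Tnni2* were named after their values were seen. One result of a list is not reported here. Libraries are separate pools of animals, and no 2 libraries agreed within sampling noise (chi-square per degree of freedom at least 15.3). The groups have 3 and 2 libraries. The edgeR intervals of log2 fold changes include the spread between libraries. The counting interval of *Acta1* and the floor of 3 counts cover counting error only, as reads carried no molecular identifiers. The alternatives were DESeq2 1.42.0's size factors or library size alone, other filters, all features, edgeR's exact test, DESeq2's Wald test, no fold threshold, a replicate block, removal of GC or transcript length trends, and each library left out.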

Additional observations from a re-analysis of the deposited data

How the results depend on the processing

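The counts of genes higher in Dlx5CE-E12.5 and Fgfr3CE-E12.5 cells, 1318 and 1653, were 2363 and 2517 with no fold threshold, 1009 and 1985 with library size alone, which raised the median log2 fold change of all genes from 0.01 to 0.22 and the share of calls that were higher in Fgfr3CE-E12.5 cells from 55.6% to 66.3%, and 1029 to 1465 and 997 to 1680 with one library left out. The 1 mural gene called higher in Dlx5CE-E12.5 cells became 2 with a CPM of at least 1 in 2 libraries or no filter on low counts, because *Myh11* then entered. The 4 called higher in Fgfr3CE-E12.5 cells ranged from 0 to 4 with one library left out: without an Fgfr3CE-E12.5 library, *Cspg4*, *Mcam* and *Tagln* could not reach a CPM of 10 in 2 libraries, and *Acta2* was not called without Fgfr3CE-E12.5 replicate 2. With the lower filter, where these genes stay in, the counts were 3 without that replicate and 4 without replicate 3, and *Tagln* was then at 1.31 and 2.01 without replicate 3 and 2. Of 533 values of 37 named genes under the alternatives, none reversed and 23, from 10 genes, were no longer called; among the mural genes this was *Acta2* alone, in that 1 setting. With the replicate block the 4 and the 1 called genes numbered 4 and 1; the shared numbers, 2 and 3, refer to different pools, and deviations of same-numbered libraries correlated at 0.13 and -0.05, so they were not treated as pairs. *Srf*, *Trpc6*, *Ano1* and *Tgfb1* also passed the CPM of 10 through the Fgfr3CE-E12.5 libraries alone, so they were not tested when either was left out. *Foxf2* passed the CPM of 1 in that way, whereas *Acta1* and *Vtn* passed it through the Dlx5CE-E12.5 libraries alone. The block and the loss of Dlx5CE-E12.5 replicate 1 each moved *Rgs5* to -0.12. Without the filter, *Cnn1* was at 0.71 (standard error 1.61, adjusted p = 0.767, edgeR). *Cox4i2*, *Steap4*, *Mrtfb*, *Mylk* and *Cald1*, with log2 fold changes near 1 in size, lost their calls under 2 or more settings, and the cause was not tested.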

Other observations

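Signals that recruit mural cells to vessels were also measured. Of 14 such genes, 11 were tested with the CPM of 10, and their median log2 fold change was -0.21 against 0.01 over all genes. Of these, 2 were called higher in Dlx5CE-E12.5 cells (13.1% of all genes) and 1 in Fgfr3CE-E12.5 cells (16.4%). *Angpt1*, the angiopoietin that activates the receptor encoded by *Tek*, had a CPM of 340, 357 and 303 in the Dlx5CE-E12.5 libraries and 141 and 60.8 in the Fgfr3CE-E12.5 libraries (log2 fold change -1.72, standard error 0.35, adjusted p = 0.00629, edgeR). It was at -2.38 and -1.18 without Fgfr3CE-E12.5 replicates 2 and 3. *Angpt2*, its context-dependent antagonist, had 95.2, 144 and 168 CPM against 24.7 and 36.8 CPM (log2 fold change -2.14, standard error 0.3, adjusted p = 0.00135, edgeR). *Tgfb1*, which drives contractile genes in many mesenchymal cells, had 5.48, 3.86 and 4.41 CPM against 52.7 and 85.9 CPM (log2 fold change 3.91, standard error 0.27, adjusted p = 8.5e-05, edgeR). It is also a gene of leukocytes and platelets, whose marker sums were higher in the same libraries, and their part in its level was not tested. Groups of these 3 genes did not overlap. *Tgfb1* passed the CPM of 10 through the Fgfr3CE-E12.5 libraries alone.

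Targets that MRTF, SRF and YAP are known to activate were also examined. Of 14 listed, 13 were tested, and 2 were called higher in Fgfr3CE-E12.5 cells, near the 16.4% of all genes tested. Their median log2 fold change was 0.16, against 0.01 over all genes. *Ccn2*, a matricellular growth factor, had a CPM of 238, 383 and 525 in the Dlx5CE-E12.5 libraries and 2060 and 1730 in the Fgfr3CE-E12.5 libraries (log2 fold change 2.31, standard error 0.32, adjusted p = 0.00127, edgeR). *Zyx*, a focal adhesion protein, changed by 1.54 (adjusted p = 0.00162, edgeR). *Ccn1*, a relative of *Ccn2*, was at 2200 to 3310 CPM in Dlx5CE-E12.5 cells and 3160 to 3220 CPM in Fgfr3CE-E12.5 cells, with overlap.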
